A study of Mus musculus with 35 samples.

Results

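The genes described here are 8 cell cycle genes, Top2a, Pbk, Mki67, Cdk1, Ccna2, Ccnd1, Ccnd2 and Cdkn1a, chosen by name. Of these, 7 have a row in the deposited expression table of 19573 genes, and Mki67 was not analysed here. The libraries are bulk RNA sequencing of astrocytes, the main supporting glia of the brain. The cells were purified from the cortex of mice aged 30 to 35 days by fluorescence-activated sorting. All mice, saline controls included, carried the Aldh1l1egfp genotype, in which a green fluorescent protein marks cells that use the astrocyte gene Aldh1l1. They had received 5 mg/kg lipopolysaccharide (LPS), a component of bacterial cell walls that sets off inflammation, or saline. Of the female libraries, 5 LPS and 4 saline ones were from 3 h after injection, 4 LPS and 5 saline ones from 24 h, and 3 LPS and 4 saline ones from 72 h. Males were studied at 24 h, with 5 LPS and 5 saline libraries.

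Cell division is run by cyclin-dependent kinases (CDKs), which are switched on by cyclins and held in check by inhibitor proteins. Cyclins D1 and D2, made by Ccnd1 and Ccnd2, activate CDK4 and CDK6 in the G1 phase, and p21, made by Cdkn1a, binds cyclin-CDK complexes and halts the cycle. Cyclin A2 (Ccna2), CDK1, topoisomerase II alpha (Top2a) and the kinase PBK (Pbk) serve DNA replication, chromosome separation and mitosis, and their transcripts are used as marks of dividing cells. Astrocytes of the adult cortex are mostly outside the cell cycle, and Cdkn1a is also induced by stress and by cytokines in many cells that do not divide.

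Values are FPKM as deposited (fragments mapped to a gene, divided by its transcript length and by the library's mapped fragments), so that levels of different genes are on 1 scale per length. The read depth of the libraries is unknown, and a value of 0 is described only as listed at 0. FPKM summed to 456417 to 565592 per library, 14508 to 16942 genes reached 1 FPKM, and genes of the mitochondrial genome held 4.86% to 24.4% of the sum. All 10 astrocyte markers were present, at a summed 5402 to 11562 FPKM per library, against 208 to 2211 FPKM for 10 oligodendrocyte markers and 50.1 to 943 FPKM for 16 microglia markers. The numbers of 11 libraries, all from 24 h, were stored in single precision and those of the other 24 in double precision, and the 2 formats are treated as possible batches. The labels do not say whether libraries came from separate animals, so each p-value reflects variation among libraries and nothing further. Calls are an adjusted p under 0.05 in limma's test on log2(FPKM + 1), with Benjamini-Hochberg adjustment over all 19426 genes tested, and fold changes are on that scale.

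The members differed widely in level. Averaged over the 35 libraries, Ccnd2 stood at 19.5 FPKM (lowest 10.7, highest 29.2) and Cdkn1a at 16.0 FPKM (1.61 to 59.8). Ccna2 averaged 7.43 FPKM (2.73 to 13) and Ccnd1 2.91 FPKM (0.964 to 7.03). The remaining 3 were low and uneven: Pbk averaged 2.82 FPKM and was listed at 0 in 5 libraries, Top2a averaged 2.33 FPKM, and Cdk1 averaged 0.987 FPKM and was listed at 0 in 8 libraries. All 7 members passed the filter on low values, which asked for 3 libraries or more at 1 FPKM or above.

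Cdkn1a rose after LPS at 3 h and at 24 h, in females and in males, and did not differ detectably from saline at 72 h. It was the single member called at 3 h and at 24 h in females. In males at 24 h 2 members were called, Cdkn1a and Ccnd1. No member was called lower in any of the 4 comparisons of LPS with saline, though 3 at 3 h (Top2a, Pbk and Ccna2) and 1 in males (Ccna2) were lower at an unadjusted p under 0.05. Among all genes tested, the share called higher was 1.94% at 3 h, 2.54% in females at 24 h, 7.08% in males at 24 h and 0.0772% at 72 h. The share called lower was 0.443% at 3 h, 0.798% in females at 24 h, 1.82% in males at 24 h and 0% at 72 h. In males the split of calls rested on the scaling of the libraries: 1376 genes were called higher and 353 lower, against 754 higher and 634 lower with median-of-ratios scaling, which moved the median log2 fold change of all genes to 0.03, against 0.18 without it. Both member calls in males held with that scaling, at log2 2.25 for Cdkn1a and 0.83 for Ccnd1.

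Cdkn1a lies on chromosome 17, positions 29090976 to 29100727 on the plus strand of mouse build GRCm38 (mm10). RefSeq gives it 2 start sites in this build, and the 250 bases before each are shown because this member moved most. Capitals mark motifs found by their letters. In the first window these are a pair of half-sites of the p53 response element, CATG and CATG with any 6 bases between them, which occurs in 0.49% of 32851 promoters of that length. In the second window they are GC boxes, GGGCGG or its complement, which occur in 32.74%. The p53 letters were added to the search after the window had been read.
Cdkn1a, first start, chr17:29090729-29090978, plus strand: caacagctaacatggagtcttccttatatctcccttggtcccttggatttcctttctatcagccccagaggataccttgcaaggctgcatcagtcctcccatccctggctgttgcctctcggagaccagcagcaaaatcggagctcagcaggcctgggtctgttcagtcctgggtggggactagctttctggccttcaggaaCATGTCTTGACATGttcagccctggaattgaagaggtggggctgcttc
Cdkn1a, second start, chr17:29093519-29093768, plus strand: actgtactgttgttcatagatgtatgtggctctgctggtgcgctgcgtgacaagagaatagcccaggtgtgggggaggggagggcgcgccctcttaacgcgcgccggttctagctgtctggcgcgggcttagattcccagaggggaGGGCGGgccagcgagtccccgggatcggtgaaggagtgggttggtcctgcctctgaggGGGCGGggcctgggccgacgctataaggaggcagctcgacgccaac
The p53 pair, CATGTCTTGACATG, lay 48 to 35 bases before the first start. Neither window held the STAT letters TTCNNNGAA, found in 7.02% of promoters. A match of letters is a description and does not show binding.

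In females at 3 h, Cdkn1a was at 46.7, 35.5, 26.3, 40.8 and 51.7 FPKM in the LPS libraries, against 5.70, 4.18, 7.68 and 8.46 FPKM in the saline libraries. Every LPS library lay above every saline library, as was so for 2.98% of all genes tested. The log2 fold change was 2.46 ± 0.39 (SE), or 5.50-fold (limma adjusted p = 6.44e-05).

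Cdkn1a in females at 24 h was at 59.8, 37.8, 21.1 and 13.2 FPKM after LPS, against 1.61, 2.51, 3.46, 5.00 and 5.36 FPKM in saline. The groups did not overlap, as for 3.32% of genes, although the LPS libraries spread widely. The log2 fold change was 2.76 ± 0.39, or 6.75-fold (limma adjusted p = 1.39e-05). LPS replicates 1 to 3 and saline replicates 1 to 3 were single-precision libraries, and among these the log2 fold change was 3.44 (adjusted p = 2.12e-04). Among double-precision libraries, with a single LPS library, it was 1.21 and was not called (adjusted p = 0.961).

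Cdkn1a in males at 24 h was at 17.7, 18.3, 7.70, 39.7 and 38.5 FPKM after LPS, against 2.52, 3.70, 5.27, 2.67 and 1.72 FPKM in saline. Again no LPS library fell within the saline range, as for 9.55% of genes. The log2 fold change was 2.45 ± 0.37 (limma adjusted p = 5.04e-05). It was 2.01 among single-precision libraries (adjusted p = 0.0426) and 2.93 among double-precision libraries (adjusted p = 0.0765). The LPS effect in females minus that in males was 0.31 ± 0.54 on the log2 scale (adjusted p = 0.949), so a sex difference in the size of the rise was not detectable.

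At 72 h, Cdkn1a was at 3.38, 6.07 and 9.39 FPKM after LPS, against 4.25, 5.19, 7.94 and 9.53 FPKM in saline, and the groups overlapped throughout. The log2 fold change was -0.12 ± 0.45 (limma adjusted p = 0.981). The LPS effect at 72 h minus that at 24 h in females was -2.87 ± 0.59 (limma adjusted p = 0.0193), and Cdkn1a was the single member called in that difference, where 0.324% of all genes were called lower. Leaving out 1 of 6 libraries ended this call, namely LPS 24 h replicate 1 or 2, LPS 72 h replicate 1 or 2, and saline 72 h replicate 3 or 4, with adjusted p = 0.0612 to 0.0853. Within double-precision libraries, with a single LPS library at 24 h, the Cdkn1a difference was -1.32. Over all libraries the same difference for Ccnd1 was -1.19 ± 0.38 (limma adjusted p = 0.204). It was lower at an unadjusted p under 0.05 but was not called.

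By group mean, Cdkn1a was highest after LPS at 3 h (40.2 ± 9.87 FPKM, SD, n = 5), then after LPS at 24 h in females (33.0 ± 20.6, n = 4) and males (24.4 ± 14.1, n = 5). The saline group at 72 h (6.73 ± 2.44, n = 4), saline at 3 h (6.50 ± 1.93, n = 4) and LPS at 72 h (6.28 ± 3.01, n = 3) came next. Saline at 24 h was lowest, at 3.59 ± 1.60 FPKM in females and 3.18 ± 1.37 FPKM in males (n = 5 each). Neighbours in this order overlapped in their libraries. The plot of Cdkn1a and the cyclin D genes by library shows the rise at 3 h and 24 h and the overlap at 72 h.

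**Figure D1:**
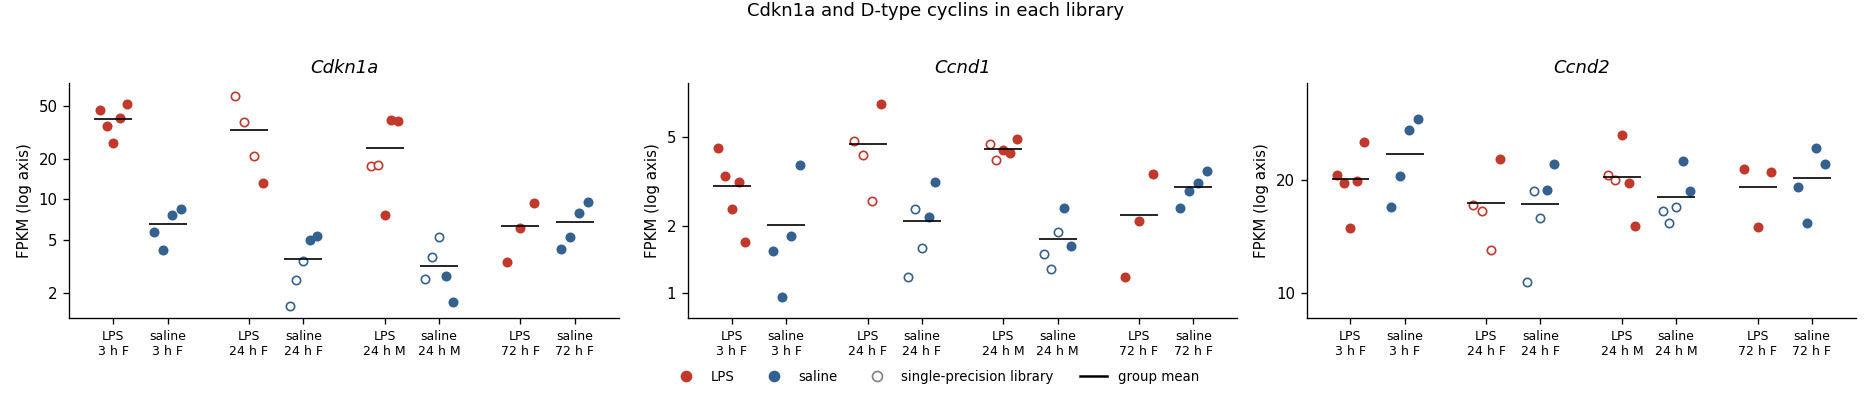
FPKM (log axes) of Cdkn1a, Ccnd1 and Ccnd2 in each of the 35 libraries, by group, with LPS in red and saline in blue; open circles are single-precision libraries and lines are group means. Cdkn1a lies at 7.70 FPKM or more in every LPS library at 3 h and 24 h, and at 8.46 FPKM or less in the saline libraries of those times.

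The level of Cdkn1a also moved with the mitochondrial share. Over the 35 libraries its log2 level correlated with the mitochondrial share at r = -0.533 (rho = -0.522), and the share was 7.17% and 7.63% in LPS 3 h replicates 4 and 5, the lowest of that group. In males at 24 h the share was 4.86% to 16.3% after LPS and 16.8% to 23.4% in saline. Those ranges did not overlap, so treatment and share cannot be fully told apart in males. With the share as a covariate the log2 fold changes were 2.15 at 3 h, 2.40 in females and 1.73 in males at 24 h, and all 3 were still called. In bulk samples, a change in the number of cells of a type and a change in RNA per cell cannot be told apart. A stretch of 273 exon bases of Cdkn1a is shared with the unclassified transcript AC167363.2 on the other strand, and whether counting used strand is not given in the sources used here.

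Some markers of other cell types were also called after LPS at 24 h. In males 6 of 16 microglia markers were called higher and 2 lower (median log2 1.17), and their summed level was 150 to 380 FPKM after LPS and 73.9 to 259 FPKM in saline. Also called higher in males were 3 of 12 endothelial, 2 of 5 leukocyte, 2 of 10 neuron and 1 of 10 oligodendrocyte markers. Over all genes in males 7.08% were called higher and 1.82% lower. Whether the marker calls held with other scalings was not tested. In females 2 of 5 leukocyte markers and 1 of 12 endothelial markers were called higher and 1 of 16 microglia markers lower. Over all genes in females 2.54% were called higher and 0.798% lower. The leukocyte markers summed to 14.6 to 52.2 FPKM after LPS and 1.07 to 26.7 FPKM in saline in females, and to 14.8 to 51.4 FPKM after LPS and 2.16 to 23.7 FPKM in saline in males. The part of these cells in the changes at 24 h was not tested.

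Cyclin D1 was the other member that rose, and only in males was it called. Ccnd1 in males at 24 h was at 4.69, 3.94, 4.39, 4.27 and 4.90 FPKM after LPS, against 1.5, 1.28, 1.88, 2.41 and 1.64 FPKM in saline. The LPS libraries were tightly grouped and all lay above the saline libraries, as was so for 9.55% of all genes tested. The log2 fold change was 1.0 ± 0.23 (limma adjusted p = 0.00761), and leaving out any of the 10 libraries kept the call. It was 1.06 among single-precision libraries (adjusted p = 0.155), 0.88 among double-precision libraries (adjusted p = 0.137), and 0.94 with the mitochondrial share as a covariate (adjusted p = 0.0664).

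Ccnd1 in females at 24 h was at 4.83, 4.18, 2.58 and 7.03 FPKM after LPS, against 1.18, 2.38, 1.59, 2.20 and 3.16 FPKM in saline. LPS replicate 3 fell below the highest saline library, and the others lay above all saline libraries. The log2 fold change of 0.84 ± 0.25 just missed the threshold (limma adjusted p = 0.0522). It passed without LPS replicate 3 (1.04, adjusted p = 0.0215), without saline replicate 5 (0.96, adjusted p = 0.0298), without LPS 3 h replicates 4 and 5 (adjusted p = 0.0457) and with the number format as a covariate (0.89, adjusted p = 0.0274). It moved further from the threshold with only these groups fitted (adjusted p = 0.196), with quantile normalization (0.77, adjusted p = 0.0917), with a pseudocount of 0.1 (1.10, adjusted p = 0.0703) and without mitochondrial genes (0.79, adjusted p = 0.0697). The LPS effect in females minus that in males was -0.16 ± 0.34 (adjusted p = 0.954), so the sexes were not shown to differ. In that difference limma called no member, none had an unadjusted p under 0.05, and 0% of all genes were called.

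At 3 h, Ccnd1 was at 4.46, 3.37, 2.39, 3.15 and 1.70 FPKM after LPS, against 1.55, 0.964, 1.80 and 3.74 FPKM in saline (log2 0.45 ± 0.25, limma adjusted p = 0.491). At 72 h it was at 1.18, 2.12 and 3.41 FPKM after LPS, against 2.40, 2.87, 3.11 and 3.54 FPKM in saline (log2 -0.35, limma adjusted p = 0.958). At both times the groups overlapped. Ccnd1 lies on chromosome 7 (144929931 to 144939925, minus strand) and shares 1100 exon bases with Oraov1 on the other strand, which averaged 7.54 FPKM over all libraries. Without strand, reads of the shared stretch cannot be told apart.

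Cyclin D2 was the highest D-type cyclin among the members and did not change detectably. Ccnd2 (chromosome 6, 127125162 to 127152193, minus strand, with 372 exon bases shared with Gm43126 and 368 with 9330179D12Rik on the other strand) averaged 20.1 ± 3.75 FPKM after LPS and 23.5 ± 5.75 FPKM in saline at 3 h (SD, n = 5 and 4). In females at 24 h it averaged 17.4 ± 4.02 FPKM after LPS and 17.2 ± 4.30 FPKM in saline (n = 4 and 5), and in males 20.4 ± 4.08 FPKM after LPS and 18.0 ± 2.79 FPKM in saline (n = 5 each). At 72 h it averaged 19.2 ± 3.63 FPKM after LPS and 20.3 ± 3.92 FPKM in saline (n = 3 and 4). The log2 fold changes were -0.20 ± 0.21, 0.02 ± 0.21, 0.16 ± 0.20 and -0.07 ± 0.24 in that order of comparisons.

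The plot of fold changes sets the 7 members side by side. Their median log2 fold change was -0.56 at 3 h, -0.24 in females at 24 h, -0.17 in males at 24 h and -0.12 at 72 h. Over all genes tested the medians were 0.02, 0.05, 0.18 and -0.10.

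**Figure D2:**
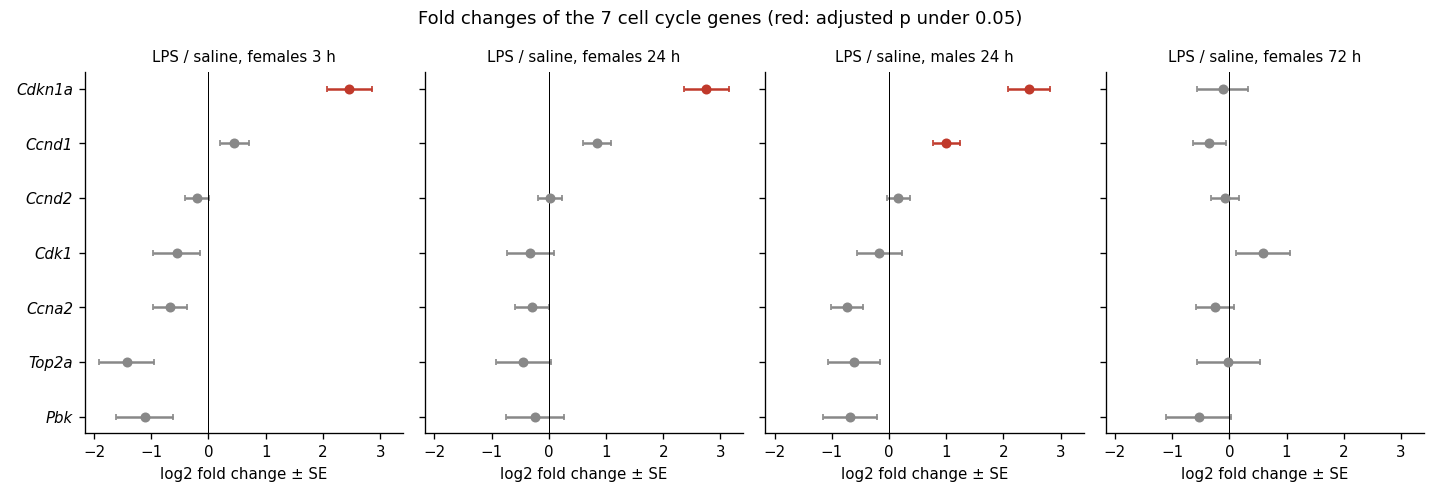
Log2 fold changes of LPS over saline with their standard errors for the 7 members in 4 comparisons, on log2(FPKM + 1); red points passed an adjusted p of 0.05. Cdkn1a stands at 2.46, 2.76 and 2.45 in the first 3 panels and at -0.12 at 72 h, and Ccnd1 is red in males at 24 h.

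Relatives of these genes were read from lists of cell cycle genes. Of 7 other CDK inhibitor genes, 5 were tested, and 1 was called higher at 3 h and 1 in males at 24 h. In those comparisons 1.94% and 7.08% of all genes were called higher. Cdkn2d, which makes the CDK4 and CDK6 inhibitor p19, averaged 21.6 ± 5.53 FPKM after LPS and 9.51 ± 2.97 FPKM in saline at 3 h (SD, n = 5 and 4), a log2 fold change of 1.11 ± 0.28 (limma adjusted p = 0.0184). Among males at 24 h it averaged 16.9 ± 2.79 FPKM after LPS and 9.05 ± 2.99 FPKM in saline (n = 5 each), a log2 fold change of 0.86 (limma adjusted p = 0.0357), which was 0.65 and not called with median-of-ratios scaling (adjusted p = 0.086). At 24 h in females limma called no gene of this list, and 1, Cdkn1b, had an unadjusted p under 0.05. Cdkn1b, which makes the inhibitor p27, averaged 7.04 ± 5.88 FPKM after LPS and 16.4 ± 3.74 FPKM in saline there (n = 4 and 5; log2 -1.41 ± 0.47, limma adjusted p = 0.1). None of Cdkn1b, Cdkn1c, Cdkn2b and Cdkn2c was called by limma in any LPS comparison, and at 72 h no gene of the list had an unadjusted p under 0.05. In the authors' deposited table Cdkn1b had -0.88 on the log2 scale in males at 24 h (adjusted p = 0.0475). Ccnd3, the gene of cyclin D3, and the kinase genes Cdk4 and Cdk6 were not called either. Cdk4 in males at 24 h had a log2 fold change of 0.53 (limma adjusted p = 0.136), with 57.4 ± 11.2 FPKM after LPS and 39.2 ± 4.46 FPKM in saline.

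**Figure D3:**
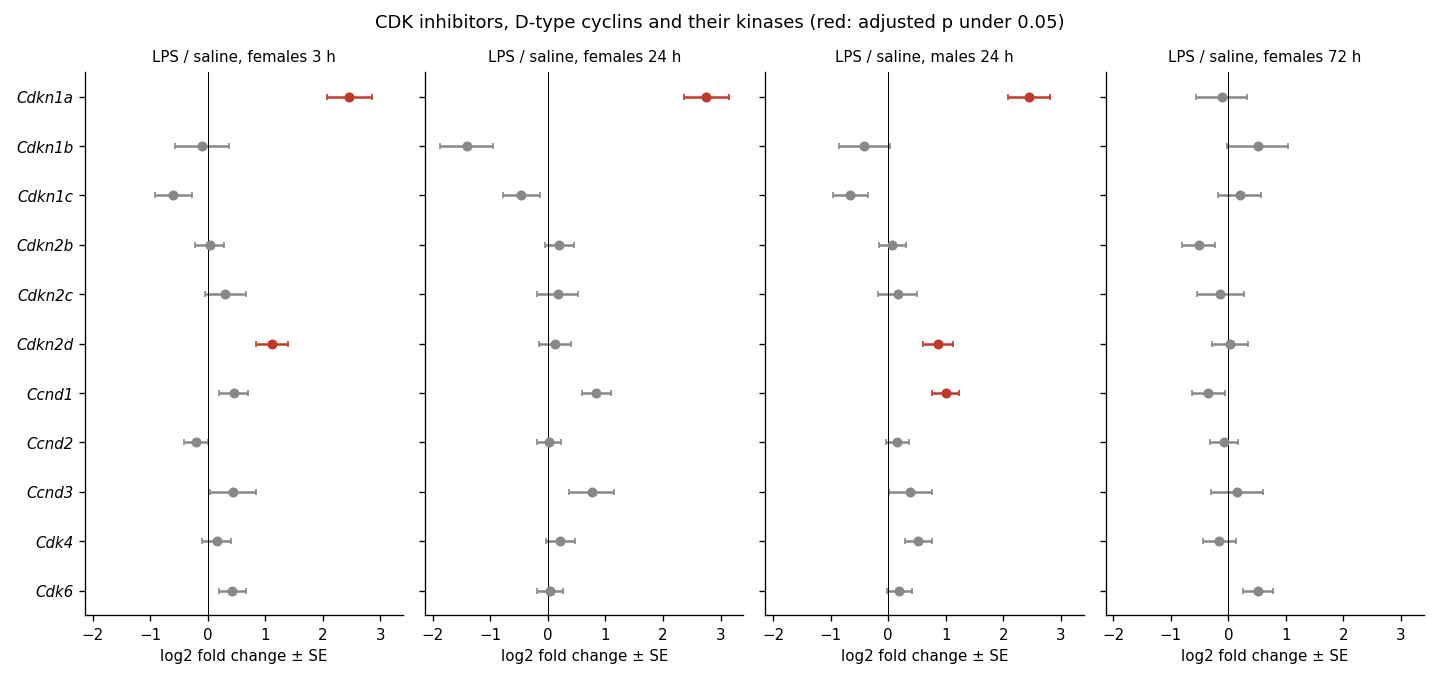
Log2 fold changes of LPS over saline with their standard errors for CDK inhibitor genes, D-type cyclins and Cdk4 and Cdk6 in 4 comparisons; red points passed an adjusted p of 0.05. Cdkn2d is red at 3 h (1.11) and in males at 24 h (0.86), beside Cdkn1a in both and Ccnd1 in males.

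The list named p53 targets, of genes linked to p53 or to the stress it responds to, held 28 genes other than Cdkn1a, of which 26 were tested. Its median log2 fold change was 0.17 at 3 h, 0.19 in females and 0.30 in males at 24 h, and -0.01 at 72 h. Over all genes tested the medians were 0.02, 0.05, 0.18 and -0.10 in that order. A part of p53 in the changes was not tested. At 3 h, 4 were called higher, where 1.94% of all genes were, and none lower. Polk and Perp were lower at an unadjusted p under 0.05 (log2 -0.82 and -0.65, limma adjusted p = 0.144 and 0.387). These 2 are named after their values were seen. Gadd45g averaged 243 FPKM after LPS and 43.0 FPKM in saline (log2 2.53, limma adjusted p = 3.28e-07), Gadd45b 18.6 FPKM after LPS and 2.60 FPKM in saline (log2 2.39), and the death receptor gene Fas 21.7 FPKM after LPS and 7.65 FPKM in saline (log2 1.28). The Gadd45 genes are stress sensors that respond to DNA damage and, for Gadd45b and Gadd45g, to cytokines. At 24 h in females 2 rose, where 2.54% of all genes were called higher. They were Fas (log2 1.07, not called under 3 other scalings, limma adjusted p = 0.0684 to 0.135) and the sugar reductase gene Dcxr (log2 1.02). At 24 h in males 6 rose, where 7.08% of all genes were called higher. The largest were Gadd45b at log2 1.69, the epoxide hydrolase gene Ephx1 at 1.15 and Gadd45g at 1.10. With median-of-ratios scaling 4 were called. In the same comparison 6 microglia, 3 endothelial, 2 leukocyte and 2 neuron markers were called higher, and their part was not tested. At 72 h none was called by limma, and 2 had an unadjusted p under 0.05.

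The G1 list of CDK, Rb and E2F genes held 23 genes, of which 19 were tested. At 3 h 1 was called higher, where 1.94% of all genes were. In males at 24 h 1 was called lower, where 1.82% of all genes were. The growth gene Myc rose at 3 h, to 10.9 FPKM after LPS, against 3.10 FPKM in saline (log2 1.56 ± 0.29, limma adjusted p = 5.52e-04). In males at 24 h Rb1, the gene of the retinoblastoma protein that holds E2F factors in check, fell by 0.84 on the log2 scale (39.1 FPKM after LPS and 70.2 FPKM in saline, limma adjusted p = 0.0124). In females at 24 h no gene of this list was called by limma, with 3 at an unadjusted p under 0.05, and at 72 h none, with 1.

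Of 36 genes of the G1/S transition and DNA replication, 29 were tested. None was called at 3 h by limma (4 had an unadjusted p under 0.05, all lower after LPS). Gins1, of the replicative helicase, was the 1 of 29 that rose in females at 24 h, where 2.54% of all genes were called higher. It was at 3.11 FPKM after LPS and 0.941 FPKM in saline (log2 1.07, limma adjusted p = 0.0197). Among males at 24 h 3 of 29 rose, where 7.08% of all genes were called higher: Cdc45, of the same helicase (2.78 FPKM after LPS and 0.836 FPKM in saline, log2 1.14), the flap endonuclease gene Fen1 (log2 0.90) and Rpa2 (log2 0.87), of the single-strand binding complex. Cdc45 and Fen1 were low in both groups, and Rpa2 was at 10.2 FPKM after LPS and 5.29 FPKM in saline. None of these 3 calls held with median-of-ratios scaling (log2 1.01, 0.78 and 0.68, limma adjusted p = 0.055 to 0.0588). At 72 h none was called by limma, with 2 at an unadjusted p under 0.05.

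Of 39 genes of G2 and mitosis other than the members, 26 were tested, and Ncapd2, a condensin subunit gene, was the single one called in any LPS comparison. It was higher in males at 24 h (16.3 FPKM after LPS and 7.38 FPKM in saline, log2 1.05, limma adjusted p = 0.0264). In that comparison 7.08% of all genes were called higher. At 3 h no gene of this list was called by limma and 6 had an unadjusted p under 0.05, all lower after LPS, with a list median of -0.37. At 24 h in females and at 72 h limma called none, with 1 each at an unadjusted p under 0.05.

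The mitotic members Top2a, Pbk, Cdk1 and Ccna2 had their highest group means in saline at 3 h, and none was called in a comparison of LPS with saline. Top2a lies on chromosome 11 (98992943 to 99024189, minus strand), Pbk on chromosome 14 (65805837 to 65817822, plus strand), Cdk1 on chromosome 10 (69335146 to 69352938, minus strand) and Ccna2 on chromosome 3 (36564865 to 36572150, minus strand). Top2a shares 122 exon bases with Gm23451, a small nucleolar RNA gene on the same strand, where strand would not tell reads apart. Ccna2 shares 510 exon bases with Exosc9 on the other strand, which averaged 27.3 FPKM over all libraries. Ccna2 reads are therefore uncertain in the way described for Ccnd1. Genes of this phase often carry CCAAT boxes, CHR elements and E2F sites near their start. The 250 bases before the RefSeq start of Top2a and of Cdk1 are shown for that reason, on the gene's strand, with the motifs found on either strand in capitals. The motifs are CCAAT, the CHR letters TTTGAA or TTCGAA, the E2F letters TTTCGCGC, TTTGGCGC, TTTCCCGC or TTTGCCGC, and the GC box.
Top2a, chr11:99024190-99024439, minus strand: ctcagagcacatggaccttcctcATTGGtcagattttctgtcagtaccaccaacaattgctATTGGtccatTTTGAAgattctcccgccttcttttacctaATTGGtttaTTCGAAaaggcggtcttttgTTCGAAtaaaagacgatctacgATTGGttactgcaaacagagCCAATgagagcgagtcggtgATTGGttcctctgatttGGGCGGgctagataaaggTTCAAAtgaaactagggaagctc
Cdk1, chr10:69352913-69353162, minus strand: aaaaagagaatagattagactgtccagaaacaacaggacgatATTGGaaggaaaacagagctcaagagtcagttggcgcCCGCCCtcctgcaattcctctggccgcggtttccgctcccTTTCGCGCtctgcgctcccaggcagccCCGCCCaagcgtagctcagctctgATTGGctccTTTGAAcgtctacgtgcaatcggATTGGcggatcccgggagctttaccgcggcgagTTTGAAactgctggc
The Top2a window held 6 CCAAT boxes, 4 CHR matches and 1 GC box. The Cdk1 window held 3 CCAAT boxes, 2 CHR matches, 1 E2F match and 2 GC boxes. Of 32851 promoters of this length, 33.85% held a CCAAT box, 17.15% a CHR match and 1.86% one of the E2F sequences. Neither Cdkn1a window held any of these 3 motifs. Pbk, Ccna2, Ccnd1 and Ccnd2 are named only.

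At 3 h, Pbk was at 5.84, 6.88, 4.67, 1.49 and 1.98 FPKM after LPS, against 8.57, 9.87, 7.57 and 11 FPKM in saline. Every LPS library lay below every saline library, as was so for 1.70% of all genes, yet the test did not pass (log2 -1.11 ± 0.50, limma adjusted p = 0.359). Top2a was at 4.70, 6.39, 4.46, 0.759 and 0.079 FPKM after LPS, against 8.16, 7.82, 11.4 and 5.76 FPKM in saline. LPS replicate 2 overlapped the saline libraries, and the log2 fold change was -1.43 ± 0.48 (limma adjusted p = 0.142). With the number format as a covariate Top2a passed (adjusted p = 0.046), at the same log2 fold change.

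Ccna2 at 3 h was at 10.2, 10.8, 9.75, 3.53 and 3.3 FPKM after LPS, against 10.9, 13, 11.9 and 9.78 FPKM in saline (log2 -0.68 ± 0.29, limma adjusted p = 0.338). Cdk1 was at 3.48, 2.23, 1.42, 0 and 0.51 FPKM after LPS, against 2.03, 3.11, 0.651 and 4.45 FPKM in saline (log2 -0.56, limma adjusted p = 0.648). LPS replicates 4 and 5 were the lowest libraries for all 4 mitotic members at this time. Without these 2 libraries the log2 fold change of Top2a was -0.57 (adjusted p = 0.908).

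At 24 h the double-precision saline libraries stood above the single-precision saline ones in Pbk, Top2a and Cdk1. In females after LPS, Pbk was listed at 0 in replicates 1 to 3 and at 3.13 FPKM in replicate 4, the single double-precision library. In female saline libraries Pbk was at 0, 0.167 and 0.0727 FPKM in the single-precision replicates 1 to 3, and at 1.07 and 4.25 FPKM in the double-precision replicates 4 and 5. In males Pbk was at 0, 0.912, 1.23, 0.0579 and 0.653 FPKM after LPS, of which the first 2 were single-precision. In male saline it was at 0.379, 0.803 and 0.224 FPKM in single-precision libraries and at 3.77 and 4.44 FPKM in double-precision ones.

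The double-precision LPS males overlapped the single-precision libraries in Pbk and in Top2a. In double-precision libraries at 24 h, Top2a was at 0.541 to 1.23 FPKM in 3 LPS males and 3.73 and 4.16 FPKM in saline males. In single-precision libraries it was at 0.174 and 0.393 FPKM in LPS males and 0.0897 to 0.697 FPKM in saline males. Female Top2a was at 0.95 FPKM in the double-precision LPS library and 1.58 and 3.76 FPKM in double-precision saline libraries. The female single-precision libraries had 0.0264 to 0.739 FPKM after LPS and 0.108 to 0.366 FPKM in saline. Cdk1 did not pass 0.194 FPKM in any single-precision library, and reached 0.352 to 0.499 FPKM in double-precision LPS males and 0.972 and 1.73 FPKM in double-precision saline males.

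None of these differences was called: in males at 24 h the log2 fold change was -0.62 ± 0.45 for Top2a, -0.68 ± 0.47 for Pbk and -0.17 ± 0.39 for Cdk1, and in females -0.45 ± 0.48, -0.24 ± 0.50 and -0.32 ± 0.42. Ccna2 in males was at 4.06, 4.85, 5.82, 2.73 and 3.48 FPKM after LPS, against 5.05, 10.3, 6.10, 8.05 and 8.68 FPKM in saline (log2 -0.73 ± 0.28, limma adjusted p = 0.0829). LPS replicate 3 alone overlapped the saline libraries. Ccna2 passed when only these groups were fitted (adjusted p = 0.0482) and without LPS 3 h replicates 4 and 5 (adjusted p = 0.0391). Over the 35 libraries its log2 level correlated with the mitochondrial share at r = 0.781. That share was 4.86% to 16.3% in LPS males and 16.8% to 23.4% in saline males, without overlap. With the share as a covariate Ccna2 was not called in males. In that fit the log2 fold changes were -0.10 for Top2a and -0.09 for Pbk. In the authors' deposited table Ccna2 had a log2 fold change of -0.97 and an adjusted p of 0.00217 in this comparison. In females at 24 h Ccna2 averaged 6.20 ± 2.28 FPKM after LPS and 7.57 ± 1.57 FPKM in saline (SD, n = 4 and 5; log2 -0.29, limma adjusted p = 0.735).

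At 72 h, Pbk was at 0.712, 1.28 and 4.68 FPKM after LPS, against 4.46, 4.62, 2.65 and 1.43 FPKM in saline. Top2a was at 0.538, 1.46 and 3.33 FPKM after LPS, against 2.25, 1.54, 1.73 and 0.951 FPKM in saline, and Cdk1 was at 0.557, 1.19 and 3.10 FPKM after LPS, against 0.11, 0.38, 1.01 and 1.14 FPKM in saline. LPS replicate 3 was the highest LPS library for all of these. Ccna2 averaged 7.07 ± 2.84 FPKM after LPS and 8.45 ± 2.79 FPKM in saline (SD, n = 3 and 4). At 72 h limma called none of the 7 members, none had an unadjusted p under 0.05, and the authors' deposited table had none with an adjusted p under 0.05.

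**Figure D4:**
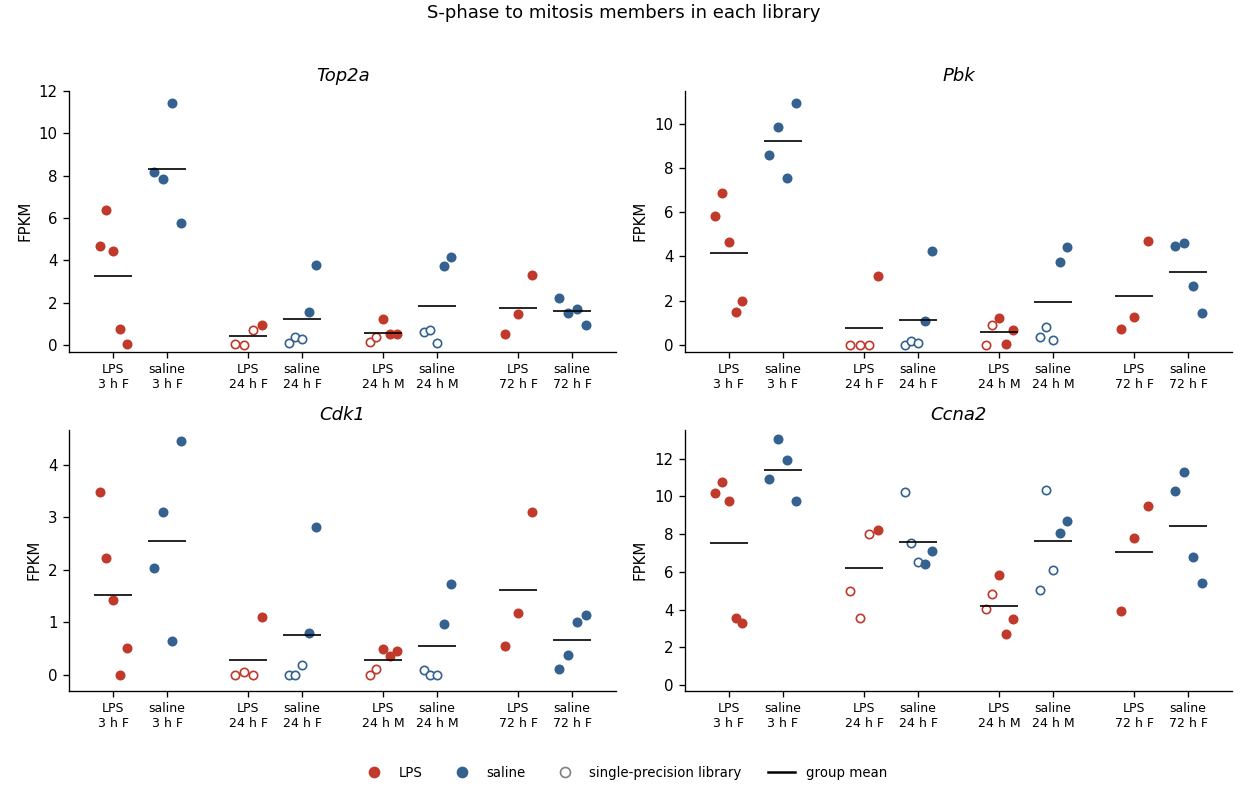
FPKM of Top2a, Pbk, Cdk1 and Ccna2 in each of the 35 libraries, by group, with LPS in red and saline in blue; open circles are single-precision libraries and lines are group means. At 24 h the open circles of Top2a, Pbk and Cdk1 lie below 1 FPKM, and the saline libraries at 3 h have the highest means.

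Between saline libraries of different times, 2 of the 7 members, Pbk and Top2a, were called, both lower at 24 h than at 3 h. In saline females Pbk was at 0 to 4.25 FPKM at 24 h, against 7.57 to 11 FPKM at 3 h (log2 -2.59 ± 0.50, limma adjusted p = 0.00646), and Top2a was at 0.108 to 3.76 FPKM at 24 h, against 5.76 to 11.4 FPKM at 3 h (log2 -2.27 ± 0.48, limma adjusted p = 0.0169). In this comparison 0.762% of all genes were called lower. Cdk1 (log2 -1.09, limma adjusted p = 0.273) and Ccna2 (log2 -0.54, limma adjusted p = 0.543) were not called. Both calls were lost with the number format as a covariate (Pbk -1.78, adjusted p = 0.071; Top2a -1.59, adjusted p = 0.162). They were lost among double-precision libraries too (Pbk -1.62, adjusted p = 0.369; Top2a -1.37, adjusted p = 0.492). The Top2a call was also lost with a pseudocount of 0.1 (adjusted p = 0.072), with only these groups fitted (adjusted p = 0.0529), and on leaving out saline 3 h replicate 1 or 3 or saline 24 h replicate 1, 2 or 3 (adjusted p = 0.0553 to 0.0694). Ckap2l, a spindle gene, was the 1 of 26 other mitotic genes called (log2 -0.96 at 24 h against 3 h), and 15 had an unadjusted p under 0.05, all lower at 24 h, with a list median of -0.65. Called lower at 24 h were 7 of 12 endothelial, 2 of 16 microglia, 2 of 10 oligodendrocyte, 1 of 10 neuron and 1 of 12 oligodendrocyte precursor markers. At an unadjusted p under 0.05, 11 endothelial, 14 microglia, 7 neuron and 6 oligodendrocyte markers were lower and 0 higher. At that threshold 5 oligodendrocyte precursor markers were lower and 2 higher, and of 10 astrocyte markers 0 were lower and 1 higher. The part of these cell types in the result was not tested. Between saline at 72 h and at 24 h limma called no member, and 1, Pbk, had an unadjusted p under 0.05 (1.43 to 4.62 FPKM at 72 h and 0 to 4.25 FPKM at 24 h). Among all genes 3.04% were called there.

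No member was called by limma between females and males, in LPS libraries or in saline libraries at 24 h, and none had an unadjusted p under 0.05. The authors' deposited table had none with an adjusted p under 0.05 in either. Limma called 0.0721% of all genes in LPS libraries and 0.0515% in saline libraries. Cdkn1a after LPS averaged 33.0 FPKM in females and 24.4 FPKM in males (log2 0.42 ± 0.39, limma adjusted p = 0.811). Ccna2 after LPS averaged 6.20 FPKM in females and 4.19 FPKM in males (log2 0.44 ± 0.29, limma adjusted p = 0.717). The differences between the LPS effect at 24 h and that at 3 h in females were not called by limma for any member either, with none at an unadjusted p under 0.05, where 0.71% of all genes were called.

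Correlations between members over the 35 libraries, which share groups, treatment and format, are given as a description. Log2 levels of Top2a and Pbk correlated at r = 0.911 (rho = 0.894), Pbk and Cdk1 at r = 0.812 (rho = 0.815) and Top2a and Cdk1 at r = 0.789 (rho = 0.790). With group means removed these were 0.838, 0.781 and 0.699. Ccna2 correlated with Top2a at r = 0.705 and with Pbk at r = 0.658, and at 0.628 and 0.565 with group means removed. Ccnd1 and Cdkn1a correlated at r = 0.634 (rho = 0.704), and at 0.305 with group means removed. With group means removed Ccnd1 correlated more with Cdk1 (0.600), Pbk (0.518), Ccnd2 (0.502) and Top2a (0.400) than with Cdkn1a. Ccnd2 reached r = 0.468 with Pbk, its highest with any member. Cdkn1a had r = -0.156 with Top2a and r = -0.451 with Ccna2.

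The genes most like each member, among 13131 genes with names other than clone symbols, were as follows. For Cdkn1a they were Nrros (r = 0.923), a gene of TGF-beta activation and reactive oxygen control, the NF-kB cofactor gene Bcl3 (r = 0.920) and Tmem52 (r = 0.917). Nrros averaged 47.3 ± 10.4 FPKM after LPS and 11 ± 2.19 FPKM in saline at 3 h (SD, n = 5 and 4). Ccnd1 was most like Tnfrsf12a (r = 0.804), the receptor of the cytokine TWEAK, and its likest genes also included Rplp0 (r = 0.749). Ccnd2 was most like the growth factor gene Mdk (r = 0.741), Hist1h2ag (r = 0.726) and Fam64a (r = 0.716). Ccna2 was most like Ptcd3 (r = 0.864), Chordc1 (r = 0.859) and Zfp397 (r = 0.847), and its log2 level also correlated with the mitochondrial share (r = 0.781, rho = 0.785).

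For the 3 other mitotic members the likest genes included markers of cilia and macrophages. Top2a and Pbk were each most like the other, followed by Rsph4a (r = 0.862 and 0.857), a part of motile cilia, and Fam216b (r = 0.854 and 0.847). Cdk1 was most like Cbr2 (r = 0.840), Pbk and Mrc1 (r = 0.804), the mannose receptor gene, which border macrophages of the brain express. Lists of border macrophage and ependymal genes were drawn up after this was seen and carry no test.

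The 7 border macrophage genes in the table had a summed level of 2.37 to 29.0 FPKM after LPS and 24.4 to 60.1 FPKM in saline at 3 h. In 24 h libraries the sum was 0.222 to 9.46 FPKM in single precision and 8.80 to 48.3 FPKM in double precision. The sum correlated with Cdk1 at r = 0.796 (rho = 0.837), with Pbk at r = 0.772 (rho = 0.754) and with Top2a at r = 0.748 (rho = 0.780), and with Cdkn1a at r = -0.039 (rho = -0.002). Sums of other lists correlated with Cdk1, Pbk and Top2a as well. In that order r was 0.710, 0.675 and 0.590 (rho = 0.816, 0.714 and 0.642) for neural progenitor markers. For the other genes of G2 and mitosis r was 0.675, 0.725 and 0.721 (rho = 0.700, 0.745 and 0.786). For ependymal genes r was 0.639, 0.637 and 0.582. The values of r were 0.568, 0.492 and 0.399 for microglia markers, and -0.293, -0.507 and -0.497 for astrocyte markers. No gene of the border macrophage list was listed at 0 in every library of a group. The 8 ependymal genes in the table summed to 9.65 to 27.6 FPKM after LPS and 17.8 to 24.5 FPKM in saline at 3 h. At 24 h they summed to 4.59 to 11.8 FPKM in single-precision and 7.77 to 21.2 FPKM in double-precision libraries. At 3 h, 12 endothelial markers summed to 63.7 to 118 FPKM after LPS and 151 to 217 FPKM in saline, with 5 called lower. The 16 microglia markers summed to 149 to 257 FPKM after LPS and 232 to 445 FPKM in saline, with 2 called lower. Among all genes 0.443% were called lower at 3 h. The part of these cell types in the levels of the mitotic members was not tested.

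**Figure D5:**
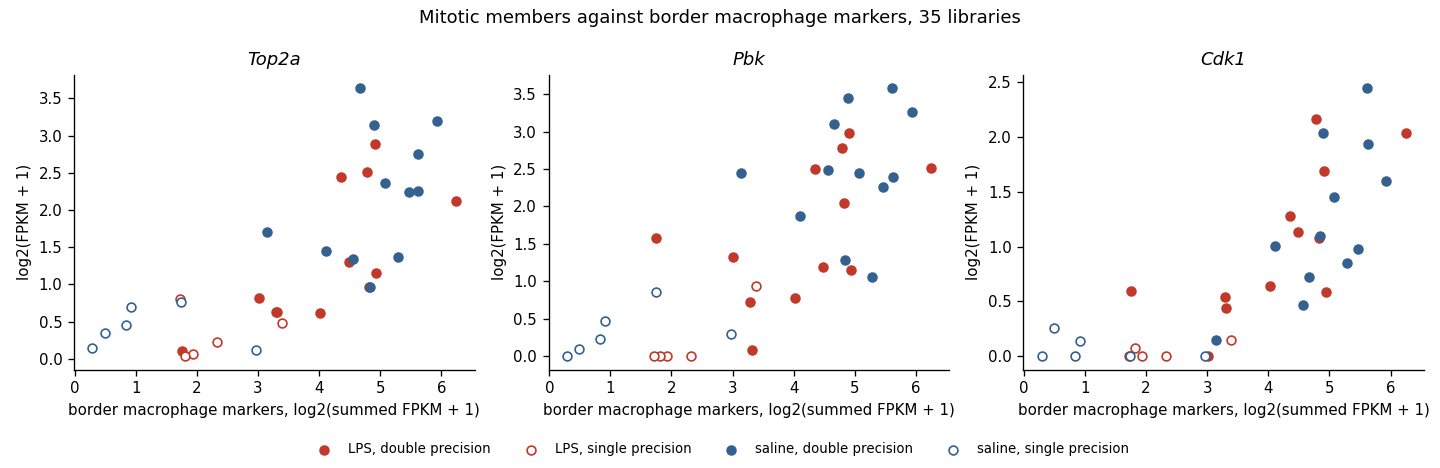
Log2(FPKM + 1) of Top2a, Pbk and Cdk1 against log2(summed FPKM + 1) of 7 border macrophage markers, 1 point per library (35 libraries), with LPS in red, saline in blue and single-precision libraries as open circles. Libraries low in the markers are low in all 3 genes (r = 0.748, 0.772 and 0.796), and the single-precision libraries sit at the low end.

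The authors' deposited table gave Cdkn1a a log2 fold change of 2.43 at 3 h (adjusted p = 7.36e-20), 2.65 in females at 24 h (adjusted p = 1.67e-11), 2.25 in males at 24 h (adjusted p = 1.35e-06) and 0.02 at 72 h. In the same deposited table, Ccnd1 had 0.93 in males at 24 h (adjusted p = 6.08e-04) and 0.95 in females at 24 h (adjusted p = 0.0661). In the authors' deposited table the number of members that passed was 1 at 3 h, 1 in females at 24 h and 3 in males at 24 h, where Ccna2 was the third.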

How the data were processed

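The authors deposited FPKM per gene and library, and log2 fold changes with adjusted p-values of 6 comparisons. Per the submitters' processing notes they used HISAT2, StringTie and DESeq2 with build mm10; versions are not stated. Per the labels, RNA was amplified with SMART-seq HT chemistry and made into libraries with Nextera XT. Read depth is unknown, so no counting interval is given. Of 19584 rows, 11 repeated an identifier, leaving 19573 genes; 20 symbols stored as dates were restored. A library was called single precision where its values above 100 FPKM equalled rounded single-precision numbers within 1e-07.

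A model with 1 coefficient for each of 8 groups was fitted to log2(FPKM + 1) of 35 libraries with limma 3.58.1 (trend, two-sided) and tested on simulated data, over genes at 1 FPKM or more in 3 libraries or more. Positions come from GENCODE M21 and promoters from RefSeq GRCm38.p6. The members and the gene lists were chosen with earlier results of these data known. Named were all members, the 3 most changed called genes of each cell cycle list per LPS comparison, all CDK inhibitors, Ccnd3, Cdk4, Cdk6 and the 3 genes most correlated with each member, of which 1 is not reported here. Alternatives were other pseudocounts, filters, scalings, covariates, formats and left-out libraries.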

Additional observations from a re-analysis of the deposited data

Results flagged for a closer look

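Single libraries far from the others of their group, by Dixon's test at the 95% level, were found in 5 of 49 sets of a member's values in a group. Chance gives about 1 in 20 for normally distributed values in independent sets. These sets held untransformed FPKM, some near 0, and shared libraries, so that rate is only a rough guide. LPS at 72 h, with 3 libraries, was left out of the test. Pbk was at 3.13 FPKM in LPS 24 h female replicate 4, where the 3 others were listed at 0, and Cdk1 was at 1.11 FPKM in the same library, against 0.0532 FPKM or less in the others. Pbk was at 4.25 FPKM and Cdk1 at 2.82 FPKM in saline 24 h female replicate 5, where the others reached 1.07 and 0.807 FPKM. Both are double-precision libraries. Ccna2 was at 10.3 FPKM in saline 24 h female replicate 1, against 6.41 to 7.53 FPKM in the others, and that library had the highest mitochondrial share, 24.4%.

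The effect of LPS on Cdkn1a differed between 72 h and 24 h in females, by -2.87 on the log2 scale (limma adjusted p = 0.0193).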

How the results depend on the processing

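Over 260 recomputed counts of called members, 234 stayed within 1.5 times, and of 1820 recomputed member values 23 lost a call, 8 gained one and none of the called values changed sign. With the number format as a covariate 2 members were called at 3 h (Top2a and Cdkn1a), 2 in females at 24 h (Ccnd1 and Cdkn1a) and 0 between saline at 24 h and 3 h. Within double-precision libraries 0 were called in females at 24 h, in males at 24 h, in the 72 h minus 24 h difference and between saline at 24 h and 3 h; within single-precision libraries 1, Cdkn1a, was called in males. With the mitochondrial share as a covariate, chosen after seeing the data like the double-precision fits across times, 1 member was called in males. Without LPS 3 h replicates 4 and 5 together, 2 were called in females at 24 h. A pseudocount of 0.1, or only the groups compared, left 1 member, Pbk, between saline at 24 h and 3 h. Leaving out 1 library gave 1 to 2 called members in females at 24 h, 0 to 1 for 72 h minus 24 h, 1 to 2 for saline at 24 h and 3 h and 0 to 1 for saline at 72 h and 24 h (Pbk, without saline 24 h replicate 5); elsewhere the count did not move. Fewer libraries are fitted within a format. Other scalings of the list genes were also chosen after seeing the data; for the other changes the cause was not tested.

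Same-numbered LPS and saline libraries correlated at -0.404 to 0.372 in their deviations from the group means. Libraries of different numbers were not compared, so these values do not decide whether the numbers mark pairs. At 24 h the lower replicate numbers of each group were the single-precision libraries. With the replicate block, 1, 1, 2 and 0 members were called in the 4 LPS comparisons, as without it. Depth is unknown, which limits what can be said of Top2a, Pbk and Cdk1 near 0.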
